A study of Mus musculus with 47 samples.

Results

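A set of 10 interferon effector genes was examined across postnatal development of the mouse olfactory epithelium: Ifi27, Ifi27l2a, Ifi35, Ifi44, Ifitm1, Ifitm2, Ifitm3, Bst2, Rsad2 and Xaf1. They were taken by gene symbol, as 10 of the 54532 genes in the expression table, and they had been picked because earlier results of these data showed genotype differences in such genes. Kir minus WT values of these genes are therefore given below as a description, without a test. Changes with age within a genotype were tested, but on libraries that also entered that choice, so their p-values are not independent of it. The study made polyA RNA-seq libraries of dissected olfactory epithelium from OIVT;Kir2.1 mice (Kir) and from C57BL/6J wild-type mice (WT). Kir2.1 is an inwardly rectifying potassium channel, encoded by Kcnj2, whose forced expression is used to lower the electrical activity of neurons. The Kir libraries comprised 4 at postnatal day 0 (P0), 3 at P3, 3 at P5, 4 at P7, 4 at P10, 3 at P14 and 3 at P21. The WT libraries comprised 4 at P0, 3 at P3, 3 at P5, 4 at P7, 3 at P10, 3 at P14 and 3 at P21. The labels do not spell out OIVT, the cells in which Kir2.1 is driven or the strain background of the Kir animals, so the channel and the background cannot be told apart. They also do not say whether libraries of a group came from separate animals, so p-values measure the spread between libraries only.

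Interferons are secreted proteins that cells release on sensing viral or misplaced nucleic acid. They signal through paired receptors and Jak kinases to transcription factors, among them Stat2 and Irf9, which bind the interferon-stimulated response element (ISRE) in the promoters of many genes. Another element, the gamma-activated sequence (GAS), is known from promoters of interferon gamma targets. The 10 genes studied here are effectors at the end of that chain. Ifitm1, Ifitm2 and Ifitm3 encode small membrane proteins that hinder the fusion of viruses with cell membranes. Bst2, or tetherin, ties budding virus particles to the cell surface. Rsad2, or viperin, is a radical SAM enzyme that makes a chain-terminating nucleotide. Ifi27 and Ifi27l2a belong to the ISG12 family of small hydrophobic proteins, Ifi35 is a leucine zipper protein that binds Nmi, Ifi44 is a cytoplasmic protein, and Xaf1 binds the apoptosis inhibitor XIAP and favours cell death.

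In the GENCODE M21 annotation of GRCm38, the 3 Ifitm genes lie within 55934 bases of chromosome 7, Ifitm2 at chr7:140954837-140955987, Ifitm1 at chr7:140967221-140969825 and Ifitm3 at chr7:141009586-141010770. Ifi27 (chr12:103434211-103440239) and Ifi27l2a (chr12:103442167-103443680) are neighbours with a gap of 1927 bases, on opposite strands. Rsad2 is at chr12:26442746-26456452, Ifi35 at chr11:101448407-101458698, Xaf1 at chr11:72301629-72313733, Bst2 at chr8:71534255-71537456 and Ifi44 at chr3:151730922-151749960. RefSeq promoter windows (GRCm38.p6, 250 bases before to 50 after the start of each gene) were matched by symbol for 8 of the 10 genes, with no entry for Ifi27 or Ifi27l2a. The start that RefSeq gives for Ifitm1 lies inside the gene span above, so that its window begins 605 bases after the GENCODE start and does not cover it, while the other 7 windows cover the GENCODE start. The ISRE core was searched as GAAANNGAAA and the GAS as TTCNNNGAA, on both strands. The ISRE core was found in 4 of the 8 windows, against 3.44% of 32851 promoter windows, and the GAS in 3 of the 8, against 8.30% of all windows. The windows of the Ifitm cluster, Bst2 and Rsad2 are shown because the 3 Ifitm neighbours had Kir minus WT differences of unlike size and Bst2 and Rsad2 hold matches elsewhere in the window. Each is given 5′ to 3′ on the strand of its gene, and capitals mark ISRE core matches.
Ifitm3, chr7:141010695-141010994, minus strand: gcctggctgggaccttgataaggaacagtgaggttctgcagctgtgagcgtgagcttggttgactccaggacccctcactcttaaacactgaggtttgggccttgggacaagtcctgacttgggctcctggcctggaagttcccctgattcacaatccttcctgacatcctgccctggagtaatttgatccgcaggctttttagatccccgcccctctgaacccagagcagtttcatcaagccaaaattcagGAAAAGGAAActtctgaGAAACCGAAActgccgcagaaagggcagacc
Ifitm2, chr7:140955912-140956211, minus strand: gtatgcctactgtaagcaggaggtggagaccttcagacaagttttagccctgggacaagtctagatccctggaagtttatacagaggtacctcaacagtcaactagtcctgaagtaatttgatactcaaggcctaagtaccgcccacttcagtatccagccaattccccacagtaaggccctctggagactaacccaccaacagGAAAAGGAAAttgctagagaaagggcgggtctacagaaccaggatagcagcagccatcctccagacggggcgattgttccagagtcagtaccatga
Ifitm1, chr7:140967826-140968125, plus strand: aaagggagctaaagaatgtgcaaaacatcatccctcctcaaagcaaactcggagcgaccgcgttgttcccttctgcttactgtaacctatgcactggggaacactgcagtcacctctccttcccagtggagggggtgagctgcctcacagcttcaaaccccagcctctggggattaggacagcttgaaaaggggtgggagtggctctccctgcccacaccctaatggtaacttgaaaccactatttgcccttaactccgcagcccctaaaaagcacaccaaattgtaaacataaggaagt
Bst2, chr8:71537423-71537722, minus strand: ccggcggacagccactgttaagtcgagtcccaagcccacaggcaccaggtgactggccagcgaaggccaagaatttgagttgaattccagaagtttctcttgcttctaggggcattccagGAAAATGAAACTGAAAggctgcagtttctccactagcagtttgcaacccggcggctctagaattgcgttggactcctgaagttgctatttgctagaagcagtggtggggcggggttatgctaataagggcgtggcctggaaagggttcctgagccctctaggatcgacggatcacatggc
Rsad2, chr12:26456403-26456702, minus strand: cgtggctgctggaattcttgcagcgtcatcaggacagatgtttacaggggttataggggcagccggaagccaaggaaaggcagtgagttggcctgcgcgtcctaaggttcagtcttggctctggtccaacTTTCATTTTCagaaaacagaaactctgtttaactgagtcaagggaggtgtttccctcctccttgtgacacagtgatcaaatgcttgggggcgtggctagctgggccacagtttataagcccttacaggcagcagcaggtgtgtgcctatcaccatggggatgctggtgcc

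With the start site counted as position 0, the Ifitm3 window held matches at 2 to 11 and 19 to 28, just past the start. A GAS match at 13 to 21 overlapped the later of them. The Ifitm2 window held a match at -46 to -37 with the same letters as the first Ifitm3 match. The Ifitm1 window held neither motif in these letters, but it is not a window at the GENCODE start and is not set against the other Ifitm windows. In the Bst2 window, matches at -130 to -121 and -124 to -115 overlapped each other, and a GAS match at -136 to -128 overlapped the first. The Rsad2 match, at -120 to -111, lay on the opposite strand, so its printed letters are the reverse complement of the motif. The Ifi35 window held a GAS match at 7 to 15, and the Ifi44 and Xaf1 windows held neither motif in these letters. The search took only the exact spacing, so repeats of GAAA with another spacing were not counted. Examples are gaaacgaaa in Xaf1, gaaatgaaa in Ifi35 and tttcgtttc, on the opposite strand, in Ifi44. A match is a string in a window and does not show that a factor binds there.

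The libraries held 8107547 to 30385151 read counts in genes. Omp, the marker of mature olfactory neurons, was present in every library, at 109.6 to 1401 TPM in Kir libraries and 202 to 1823 TPM in WT libraries (TPM is a level scaled for transcript length and library depth). Kcnj2, the channel gene, had 132 to 1648 CPM (read counts scaled to the library total) in Kir libraries and 36.8 to 104 CPM in WT libraries. Of the Kir libraries, 5 lay under 300 CPM of Kcnj2, namely P3 replicate 3 at 132, P7 replicates 1 and 4 at 146 and 173, and P21 replicates 1 and 2 at 209 and 238. Titles carry the prefixes cry3, cry4 or cry6, which the labels do not explain. All P5 and P10 libraries are cry6, all P0, P3, P14 and P21 libraries are cry4, and P7 holds all of them, so prefix and age cannot be told apart outside P7. WT P0 replicate 1 stood apart by brain neuron markers, which summed to 129 TPM there and to at most 14.1 TPM in any other library. WT P0 replicate 3 is titled P0 and labelled P3 in its stage field, and was kept in P0.

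Of the 10 genes, 8 shared a pattern: similar levels in Kir and WT epithelium at birth, then higher levels in Kir, with the widest separation between P10 and P21. The exceptions were Ifitm1 and Ifitm2, whose Kir minus WT log2 difference was at most 0.64 at any age. Averaged over the 7 ages, the Kir minus WT log2 difference was 2.66 ± 0.26 (SE, edgeR) for Ifi44, 2.55 ± 0.25 for Rsad2, 2.42 ± 0.18 for Xaf1, 2.16 ± 0.18 for Bst2 and 2.01 ± 0.21 for Ifi27l2a. It was 1.64 ± 0.13 for Ifitm3, 1.21 ± 0.12 for Ifi27, 0.98 ± 0.09 for Ifi35, 0.27 ± 0.08 for Ifitm1 and 0.12 ± 0.07 for Ifitm2. All but Ifitm2 passed an edgeR adjusted p of 0.05, as did 10.4% of the 19927 genes tested (3.03% higher and 7.38% lower in Kir). Since these genes were chosen from this contrast, nothing is read from that count. In bulk tissue, a difference in the number of cells of a type and a difference in RNA per cell cannot be told apart.

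**Figure D1:**
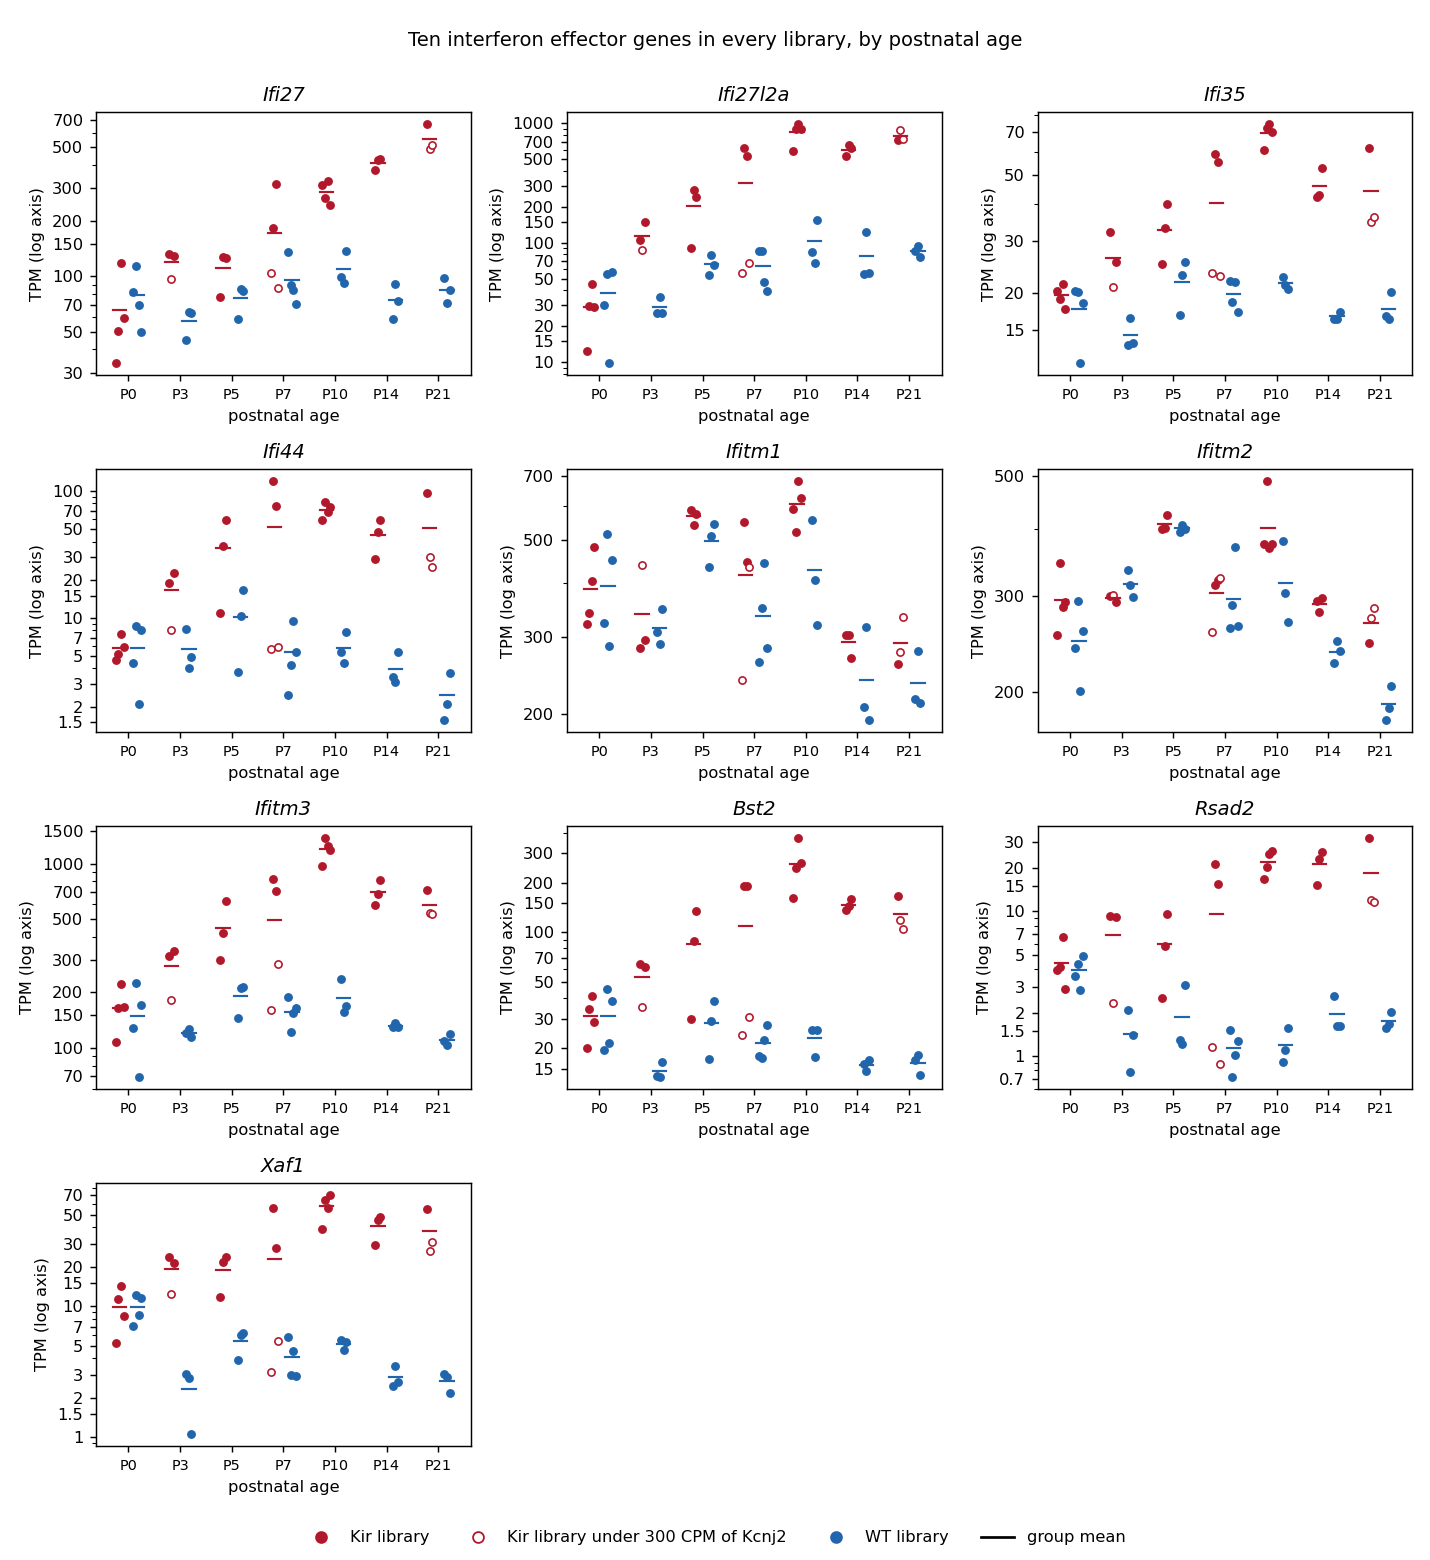
TPM of each of the 10 genes (vertical log axis) in every library, by postnatal age, with Kir in red on the left and WT in blue on the right of each age. Bars are group means, and open red circles are the 5 Kir libraries under 300 CPM of Kcnj2. The 8 genes other than Ifitm1 and Ifitm2 overlap between genotypes at P0 and are separate at P10 to P21, and the P7 Kir libraries split into a high and a low pair.

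Ifitm3, the family member known to act in endosomes, was the most abundant of the 10 in Kir epithelium at P10. Its level at P0 was 222, 108, 166 and 165 TPM in the Kir libraries and 69.4, 172, 128 and 226 TPM in the WT libraries. At P3 the Kir libraries had 314, 334 and 183 TPM, against 121, 126 and 114 TPM in WT. At P5 the Kir values were 299, 420.2 and 624 TPM and the WT values 144, 212 and 214 TPM. The genotypes overlapped fully at P0, and at P3 and P5 the lowest Kir library lay above the highest WT library. P7 broke this order, with 161, 825, 708 and 286 TPM in Kir replicates 1 to 4 and 189, 122, 154 and 164 TPM in WT replicates 1 to 4. At P10, Ifitm3 reached 971, 1378, 1241 and 1180.5 TPM in Kir and stood at 235, 157 and 168 TPM in WT. At P7, Kir replicate 1 lay inside the WT range and replicate 4 far below replicates 2 and 3, whereas at P10 every Kir library lay above every WT library. At P14, Ifitm3 had 680.1, 819 and 592 TPM in Kir and 129.9, 129 and 136 TPM in WT. At P21 it had 534, 538 and 718 TPM in Kir and 109, 119 and 104 TPM in WT, again without overlap. The Kir minus WT log2 difference was 0.10 ± 0.31 at P0, 1.32 ± 0.37 at P3, 1.27 ± 0.36 at P5, 1.30 ± 0.34 at P7, 2.57 ± 0.36 at P10, 2.42 ± 0.38 at P14 and 2.48 ± 0.38 at P21 (SE, edgeR).

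Its chromosomal neighbours did not show this pattern. Ifitm2 had 287, 254, 293 and 345 TPM in Kir and 201, 259, 241 and 294 TPM in WT at P0. At P21 it had 285, 274 and 246 TPM in Kir and 178, 205 and 187 TPM in WT. The genotypes overlapped at every age up to P10 and were separate in TPM at P14 and P21, with Kir higher. The read counts of Ifitm2 overlapped at all 7 ages, and the log2 difference from counts at P14 was 0.00 ± 0.19 although the TPM means there were 291 ± 9.07 (SD, n = 3) in Kir and 237 ± 11.1 (SD, n = 3) in WT. Ifitm2 drew few counts for its TPM, a median of 0.847 counts per TPM at a depth of 10000000, against 3.03 for Ifitm1 and 4.00 for Ifitm3. Reads that the near-identical Ifitm sequences share could be split in TPM and left out of counts. Ifitm2 also overlaps Gm45717, an annotated protein-coding gene on the same strand with a median of 0 TPM. Reads in that overlap could be left out of counts as ambiguous. The part of either in the Ifitm2 counts was not tested, so small differences of Ifitm2 are uncertain. Ifitm1, which acts at the cell surface, had 403, 322, 483 and 341 TPM in Kir and 286, 449.9, 323 and 517 TPM in WT at P0. At P10 it had 589, 522, 683 and 623 TPM in Kir and 557, 406 and 320.4 TPM in WT. At P21 the Kir values were 334, 277 and 261 TPM and the WT values 217, 213 and 279.6 TPM. In TPM the genotypes overlapped at each of the 7 ages. In counts all Kir libraries lay above all WT libraries at P5, with Ifitm1 at 150.4 ± 3.25 CPM in Kir and 127 ± 13.2 CPM in WT (SD, n = 3 each), and at P10, with Ifitm1 at 169 ± 17.8 CPM in Kir (SD, n = 4) and 107 ± 28.2 CPM in WT (SD, n = 3).

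The unequal levels of the cluster can be read within each library as the ratio of Ifitm3 to Ifitm2 TPM. The ratio was 0.560 ± 0.154 (SD, n = 4) in Kir and 0.577 ± 0.182 (SD, n = 4) in WT at P0. It was 2.98 ± 0.344 (SD, n = 4) in Kir and 0.586 ± 0.061 (SD, n = 3) in WT at P10. At P21 it was 2.25 ± 0.580 (SD, n = 3) in Kir and 0.582 ± 0.029 (SD, n = 3) in WT. Ifitm3 had more read counts than Ifitm2 in all 47 libraries. In TPM it was the lower of the pair in every WT library and every Kir P0 library. It was the higher in every Kir library of P10, P14 and P21, where the 2 units gave the same order. In counts the ratio was 2.76 ± 0.52 in Kir and 3.18 ± 1.06 in WT at P0 (SD, n = 4 each), and 12.7 ± 2.47 in Kir (SD, n = 4) and 2.56 ± 0.159 in WT (SD, n = 3) at P10. In either unit the ratio overlapped between genotypes at P0 and was higher in every Kir library than in every WT library at P10. The ratio of Ifitm1 to Ifitm2 was 1.54 ± 0.336 (SD, n = 4) in Kir and 1.33 ± 0.140 (SD, n = 3) in WT at P10, and 1.08 ± 0.082 (SD, n = 3) in Kir and 1.25 ± 0.230 (SD, n = 3) in WT at P21, with overlapping libraries.

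**Figure D2:**
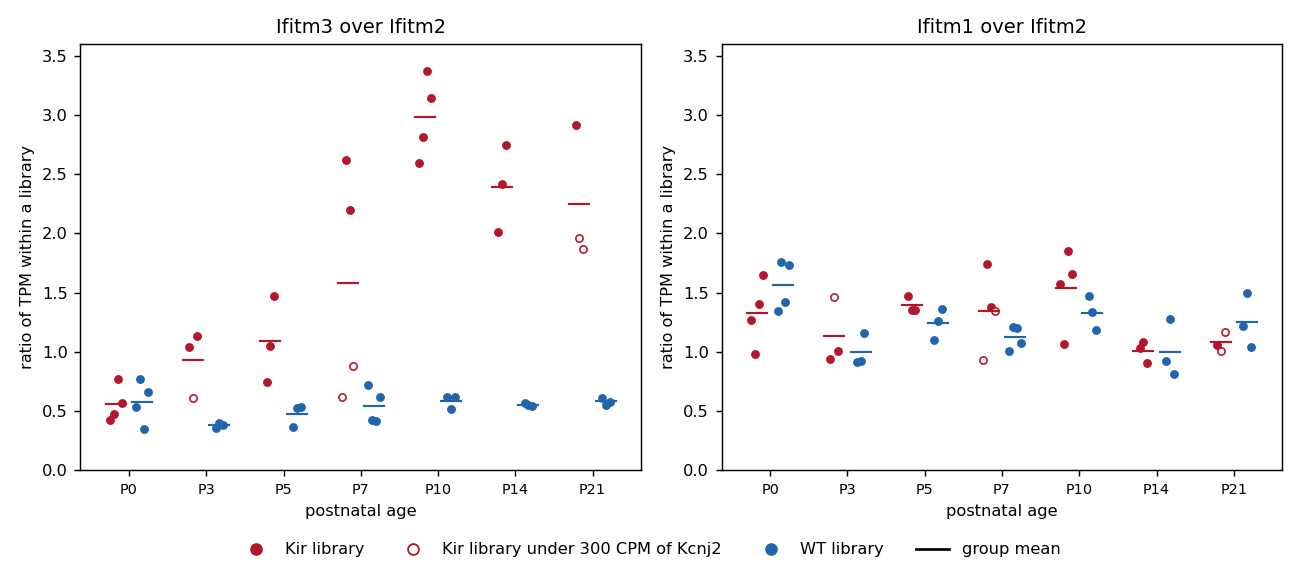
Ratio of Ifitm3 to Ifitm2 TPM (left) and of Ifitm1 to Ifitm2 TPM (right) within each library, by postnatal age, with Kir in red left of WT in blue and bars at group means. Open circles are Kir libraries under 300 CPM of Kcnj2. The Ifitm3 ratio averages 0.560 in Kir and 0.577 in WT at P0 and 2.98 in Kir and 0.586 in WT at P10, while the Ifitm1 ratio overlaps between genotypes.

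Bst2, the particle tether, started at 41.4, 20.02, 28.6 and 34.4 TPM in Kir and 21.5, 38.4, 19.5 and 45.3 TPM in WT at P0. Its P3 levels were 64.3, 61.6 and 35.6 TPM in Kir and 13.6, 13.3 and 16.4 TPM in WT. Its P5 levels were 29.9, 88.6 and 135 TPM in Kir and 17.2, 28.98 and 38.3 TPM in WT. The groups overlapped at P0, were separate at P3 and overlapped at P5 through Kir replicate 1. At P7, Bst2 had 23.8, 191, 190.0 and 30.9 TPM in Kir replicates 1 to 4 and 18.00, 17.4, 22.3 and 27.5 TPM in WT replicates 1 to 4. At P10 it had 160.4, 246, 372 and 262 TPM in Kir and 25.6, 17.8 and 25.5 TPM in WT. Kir replicates 2 and 3 of P7 lay in the range of the P10 libraries, and replicates 1 and 4 near the WT libraries. P14 gave 144, 159 and 137 TPM in Kir and 16.9, 15.9 and 14.6 TPM in WT. P21 gave 105, 118 and 165 TPM in Kir and 16.8, 13.7 and 18.04 TPM in WT, with wide separation at both ages. The Kir minus WT log2 difference of Bst2 was -0.02 ± 0.42 at P0, 3.46 ± 0.49 at P10 and 3.03 ± 0.51 at P21 (SE, edgeR).

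Rsad2, the nucleotide-modifying enzyme, was the least abundant of the 10 in WT. At P0 it had 6.62, 3.92, 2.90 and 4.17 TPM in Kir and 2.89, 4.91, 3.61 and 4.37 TPM in WT. At P10 it had 16.6, 20.4, 25.04 and 26.03 TPM in Kir and 0.91, 1.10 and 1.58 TPM in WT. At P21 it had 11.5, 11.9 and 32.2 TPM in Kir and 1.57, 2.03 and 1.67 TPM in WT. The groups overlapped at P0 and were separate at P3, P10, P14 and P21. Its log2 difference of 4.09 ± 0.66 at P10 was the largest of the 10 genes at that age. Cmpk2, which encodes a nucleotide kinase and lies 12751 bases away on the opposite strand, had a smaller difference. Cmpk2 averaged 41.5 ± 3.88 TPM in Kir (SD, n = 4) and 25.6 ± 2.82 TPM in WT (SD, n = 3) at P10. At P21 it averaged 39.5 ± 6.58 TPM in Kir and 37.3 ± 1.36 TPM in WT (SD, n = 3 each), and its difference averaged over the ages was 0.25 ± 0.05 on the log2 scale (SE, edgeR). The difference between Rsad2 and Cmpk2 was not tested.

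Ifi27, of the ISG12 family, had its highest Kir level at the last age. It had 118, 33.6, 59.4 and 50.2 TPM in Kir and 69.5, 49.9, 82.2 and 113 TPM in WT at P0. It had 133, 128 and 96.05 TPM in Kir and 45.1, 63.7 and 62.95 TPM in WT at P3. It stood at 77.5, 127 and 126 TPM in Kir and 58.9, 85.5 and 83.2 TPM in WT at P5. The genotypes overlapped at P0, were separate at P3 and overlapped at P5 through Kir replicate 1. At P7, Ifi27 had 104, 182, 314 and 86.4 TPM in Kir replicates 1 to 4 and 135, 89.8, 84.4 and 70.2 TPM in WT replicates 1 to 4. At P10, Ifi27 had 312, 267, 328 and 243 TPM in Kir and 98.98, 91.96 and 137 TPM in WT. The P7 groups overlapped and the P10 groups did not. At P14, Ifi27 had 425, 435 and 377 TPM in Kir and 73.5, 58.9 and 91.00 TPM in WT. At P21, Ifi27 had 515, 491 and 668 TPM in Kir and 97.3, 83.99 and 71.1 TPM in WT. In Kir, every P21 library lay above every P14 library, and every P14 library above every P10 library. For Ifi27 the Kir minus WT log2 difference was -0.30 ± 0.29 at P0, 1.05 ± 0.34 at P3, 0.51 ± 0.33 at P5, 0.64 ± 0.30 at P7, 1.27 ± 0.31 at P10, 2.44 ± 0.35 at P14 and 2.85 ± 0.35 at P21 (SE, edgeR).

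Ifi27l2a, its neighbour and family relative, ranged from 12.5 to 982.5 TPM over the Kir libraries and from 9.75 to 156 TPM over the WT libraries. Its P0 level was 45.2, 12.5, 28.9 and 29.5 TPM in Kir and 9.75, 56.96, 29.98 and 54.4 TPM in WT. Its P10 level was 589, 896, 982.5 and 891 TPM in Kir and 83.5, 67.7 and 156 TPM in WT. Its P21 level was 743, 886 and 728 TPM in Kir and 85.3, 75.6 and 94.04 TPM in WT. The P0 groups overlapped and those of P3, P5, P10, P14 and P21 were separate. Within a library, Ifi27l2a over Ifi27 was 0.457 ± 0.102 (SD, n = 4) in Kir and 0.532 ± 0.431 (SD, n = 4) in WT at P0. The same ratio was 2.98 ± 0.776 (SD, n = 4) in Kir and 0.906 ± 0.208 (SD, n = 3) in WT at P10, and 1.45 ± 0.357 (SD, n = 3) in Kir and 1.03 ± 0.251 (SD, n = 3) in WT at P21. The ratio in Kir was thus highest at P10, when Ifi27l2a was at its highest and Ifi27 was not.

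At P0, Xaf1, the XIAP antagonist, had 14.2, 5.22, 8.37 and 11.4 TPM in Kir and 8.63, 11.5, 7.07 and 12.1 TPM in WT. At P3, Xaf1 had 23.6, 21.5 and 12.3 TPM in Kir and 3.05, 2.84 and 1.06 TPM in WT. At P5, Xaf1 had 11.8, 21.8 and 23.6 TPM in Kir and 3.92, 6.06 and 6.29 TPM in WT. The P0 groups overlapped, and at P3 all WT libraries were below their P0 range while the Kir libraries were not. At P7 it had 3.14, 55.9, 27.97 and 5.38 TPM in Kir replicates 1 to 4 and 5.87, 3.01, 4.52 and 2.95 TPM in WT replicates 1 to 4. At P10, Xaf1 had 39.1, 64.99, 56.1 and 70.9 TPM in Kir and 5.54, 4.61 and 5.37 TPM in WT. Kir replicates 1 and 4 of P7 lay among the WT libraries, and the P10 groups were separate. At P14, Xaf1 had 45.6, 48.3 and 29.2 TPM in Kir and 2.66, 2.44 and 3.48 TPM in WT. At P21, Xaf1 had 30.8, 26.5 and 55.1 TPM in Kir and 3.04, 2.16 and 2.86 TPM in WT. Its log2 difference was -0.12 ± 0.40 at P0, 2.76 ± 0.53 at P3, 3.36 ± 0.45 at P10 and 3.94 ± 0.53 at P21 (SE, edgeR). The lowest Xaf1 count in a library was 9, the lowest of any of the 10 genes.

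Ifi44 had 7.45, 4.65, 5.89 and 5.17 TPM in Kir and 2.11, 8.01, 4.38 and 8.61 TPM in WT at P0. By P10 the values were 58.7, 82.5, 68.7 and 75.01 TPM in Kir and 5.35, 4.37 and 7.67 TPM in WT. By P21 they were 24.98, 30.4 and 97.3 TPM in Kir and 1.56, 3.71 and 2.09 TPM in WT. The groups were separate at P10, P14 and P21 in TPM, and also at P3 in counts, and Kir replicate 3 of P21 stood far above replicates 1 and 2. The P21 log2 difference of 4.96 ± 0.79 was the largest of any of the 10 genes at any age. Ifi44l, its relative 8776 bases away, ranged from 0 to 21.6 TPM in Kir and from 0 to 1.55 TPM in WT. It was at 0 in libraries of both genotypes, and no fold change is given. Ifi35 had the smallest averaged difference of the 8 genes, with 21.5, 20.3, 17.8 and 19.1 TPM in Kir and 11.6, 18.5, 20.3 and 20.2 TPM in WT at P0. At P10, Ifi35 had 61.2, 72.3, 74.5 and 70.3 TPM in Kir and 22.7, 21.3 and 20.7 TPM in WT. At P21, Ifi35 had 36.1, 34.8 and 61.7 TPM in Kir and 16.7, 20.1 and 16.4 TPM in WT. Its groups overlapped at P0 and P5 and were separate at the other 5 ages in TPM, whereas in counts they also overlapped at P7. Nmi, its binding partner, averaged 35.7 ± 4.53 TPM in Kir (SD, n = 4) and 11.2 ± 0.792 TPM in WT (SD, n = 3) at P10.

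**Figure D3:**
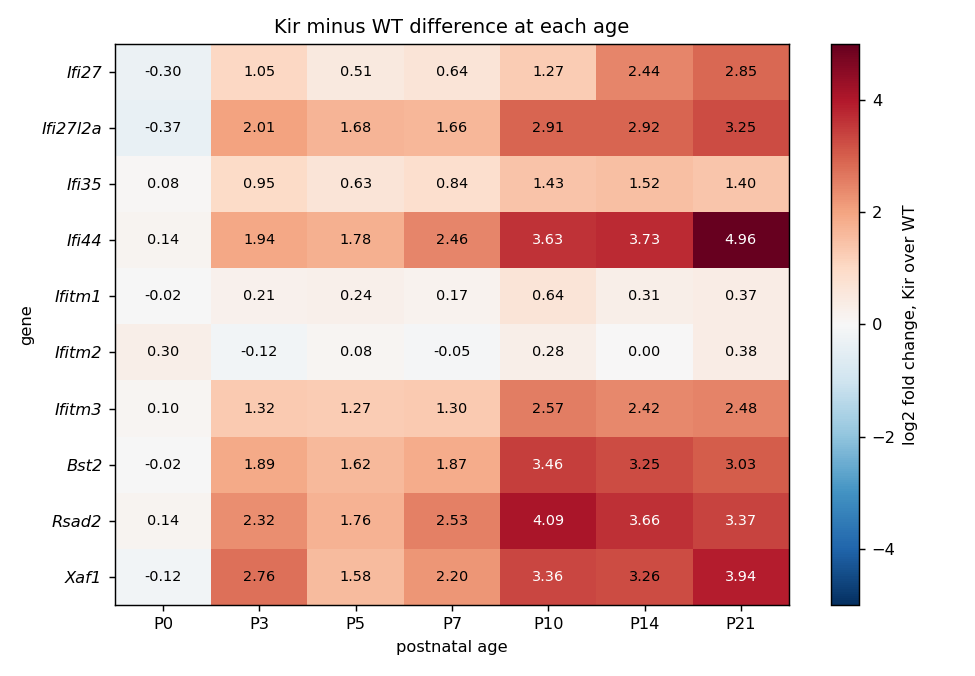
Log2 fold change of Kir over WT from edgeR (colour and printed value) for the 10 genes (rows) at each age (columns). Values at P0 run from -0.37 for Ifi27l2a to 0.30 for Ifitm2, and at P21 from 0.37 for Ifitm1 to 4.96 for Ifi44.

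Taken age by age, the median Kir minus WT log2 difference of the 10 genes was 0.03 at P0, 1.60 at P3, 1.43 at P5, 1.48 at P7, 2.74 at P10, 2.68 at P14 and 2.94 at P21. The median of all tested genes lay between -0.04 and 0.03 at these ages. None of the 10 passed edgeR's adjusted p of 0.05 at P0, where 0.984% of all genes did. Xaf1 alone passed at P3 (0.713% of all genes, 0.161% higher in Kir) and P7 (0.0753%, 0.0552% higher), and none at P5 (0.115%). The same 8 genes, all but Ifitm1 and Ifitm2, passed at P10 (3.11% of all genes, 2.82% higher), P14 (1.18%, 0.768% higher) and P21 (0.758%, 0.652% higher), each higher in Kir. Counted without a model, every Kir library lay above every WT library in TPM for 0 of the 10 genes at P0 (0.928% of all genes), 7 at P3 (5.3%), 3 at P5 (4.76%) and 1 at P7 (0.522%). The same held for 8 at P10 (4.36%), 9 at P14 (5.65%) and 9 at P21 (7.44%). These counts describe the contrast by which the genes were picked and are not tested.

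Within Kir epithelium, 8 of the 10 genes rose between P0 and P21 (22.9% of all genes rose and 48.7% changed in either direction). The log2 change was 4.61 ± 0.56 for Ifi27l2a (SE; edgeR adjusted p = 4.8e-08), 2.97 ± 0.32 for Ifi27 (edgeR adjusted p = 2.56e-09) and 2.87 ± 0.61 for Ifi44 (edgeR adjusted p = 0.000236). Rsad2 rose by 2.03 ± 0.57 (edgeR adjusted p = 0.00369), Bst2 by 1.98 ± 0.44 (edgeR adjusted p = 0.000382), Xaf1 by 1.78 ± 0.42 (edgeR adjusted p = 0.000603) and Ifitm3 by 1.78 ± 0.33 (edgeR adjusted p = 4.56e-05). Ifi35 rose by 1.21 ± 0.23 (edgeR adjusted p = 5e-05). Ifitm1, at -0.46 ± 0.21 (edgeR adjusted p = 0.0744), and Ifitm2, at -0.33 ± 0.18 (edgeR adjusted p = 0.128), did not pass. All Kir P21 libraries lay above all Kir P0 libraries for the 8 genes that rose. The share of all genes in that order was not counted, so nothing is read from it. Rsad2 lost its call without Kir P21 replicate 3 (edgeR adjusted p = 0.0644). The Kir libraries of P0 and P21 also entered the contrast by which the genes were chosen, so these p-values are not independent of that choice. Cell type markers moved in the same comparison, with 5 of 5 sustentacular markers (median log2 change 2.87) and 7 of 7 mature olfactory neuron markers (2.55) higher, 6 of 6 endothelial (-2.20) and 7 of 7 basal cell markers (-1.20) lower, and of 9 macrophage markers 1 higher and 2 lower (-0.007). Their part in the rise was not tested.

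In WT epithelium 3 of the 10 genes passed, all of them lower at P21, where 26.7% of all genes fell and 50.6% changed. Xaf1 fell by 2.28 ± 0.52 on the log2 scale between P0 and P21 (SE; edgeR adjusted p = 0.00044), Ifitm1 fell by 0.85 ± 0.22 (edgeR adjusted p = 0.00136) and Ifi44 fell by 1.96 ± 0.76 (edgeR adjusted p = 0.0311). A share of 3 in 10 is near that of all genes, and Ifitm1 had a negative value in Kir as well. The WT libraries of P0 and P21 also entered the contrast by which the genes were chosen, so the p-values here are not independent of it. The other 7 did not pass, with log2 changes of -1.20 for Rsad2 (edgeR adjusted p = 0.120), -1.07 for Bst2 (0.0631), -0.60 for Ifitm3 (0.146), -0.41 for Ifitm2 (0.0585), -0.18 for Ifi27 (0.667), -0.11 for Ifi35 (0.724) and 0.996 for Ifi27l2a (0.121). Markers of several cell types were also lower at P21 in WT, namely 5 of 9 macrophage (median log2 change -0.77), 5 of 6 endothelial (-1.79) and 5 of 7 basal cell markers (-0.93), while 7 of 7 mature olfactory neuron (2.27) and 5 of 5 sustentacular markers (2.73) were higher. Their part in the falls was not tested. Ifi44 kept its call in 10 of 20 alternatives, whereas Xaf1 and Ifitm1 passed in all 20. Ifi27l2a passed as higher in 3 of the 20, with log2 changes of 0.68 to 1.45 over them all. Leaving out WT P0 replicate 1, the library with brain neuron markers, or WT P0 replicate 3, the library with the P3 stage label, gave 4 calls each, all lower, and leaving out WT P0 replicate 4 or WT P21 replicate 1 or 2 gave 2. In these fits 8826 to 9917 of all genes were called, beside 10078 in the main fit.

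**Figure D4:**
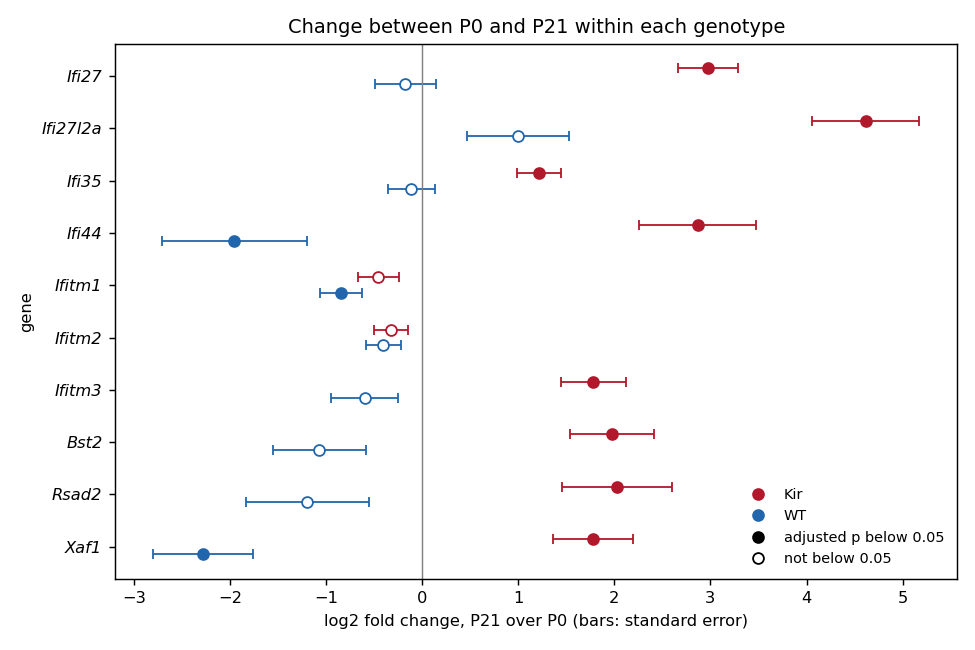
Log2 fold change of P21 over P0 from edgeR (horizontal axis) for the 10 genes, Kir in red above WT in blue, with standard errors as bars. Filled points passed an adjusted p of 0.05. The 8 filled Kir points lie between 1.21 and 4.61, and the 3 filled WT points lie below 0.

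The change of the Kir minus WT log2 difference between P0 and P21 is given as a description too, since it is made of the values by which the genes were chosen. It was 4.82 ± 0.97 for Ifi44 (SE, edgeR), 4.06 ± 0.67 for Xaf1, 3.62 ± 0.77 for Ifi27l2a, 3.22 ± 0.86 for Rsad2, 3.15 ± 0.45 for Ifi27 and 3.05 ± 0.66 for Bst2. It was 2.38 ± 0.48 for Ifitm3, 1.33 ± 0.34 for Ifi35, 0.39 for Ifitm1 and 0.08 for Ifitm2. All 10 values were above 0, and those of Ifitm1 and Ifitm2 were the smallest. An edgeR adjusted p of 0.05 was passed by 6 of the 10 genes, all but Rsad2, Ifi35, Ifitm1 and Ifitm2, beside 0.251% of all genes (50 genes, of which 48, or 0.241% of all genes, larger at P21), and nothing is read from that count. The count was 2 without the prefix term, beside 14 of all genes. It was also 2 when Kir P21 replicate 3 or any of WT P21 replicates 1, 2 and 3 was left out, beside 18 to 33.

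Over all 7 ages, Ifi27, Xaf1, Ifitm3 and Bst2 passed an edgeR adjusted p of 0.05 for any change of the difference, beside 0.256% of all genes (51 genes), which again rests on the values that chose the genes. The count of 4 was 1 without the prefix term (10 of all genes), 2 without a filter on low counts (36) and 8 with DESeq2 (248). It was 2 when Kir P0 replicate 2, 3 or 4, WT P0 replicate 2 or 4, or WT P10 replicate 3 was left out (26 to 37). Over the ages, P0 had the lowest Kir mean for each of the 8 genes other than Ifitm1 and Ifitm2. The highest Kir mean was at P10 for all of them but Ifi27, which was highest at P21. Neighbouring ages in that order mostly overlapped. P10 lay apart from the next age for Ifitm3, Bst2 and Ifi35, with the cry6 prefix at P10 and cry4 at P14 and P21. Ifitm1 and Ifitm2 were lowest at P21 in both genotypes, and their WT means were highest at P5.

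The Kir libraries of P7 did not behave as 1 group. Replicates 2 and 3, both cry6, had 903 and 1140 CPM of Kcnj2. Replicate 1, cry4, had 146 CPM and replicate 4, cry3, had 173 CPM. For 9 of the 10 genes, both of the low libraries lay below both of the high ones, Ifitm2 being the exception, beside 9.01% of all genes in that order. Ifi44 had 5.70, 119.9, 76.5 and 5.89 TPM in Kir replicates 1 to 4 and 2.46, 4.22, 9.53 and 5.43 TPM in WT replicates 1 to 4. Rsad2 had 1.17, 21.1, 15.5 and 0.89 TPM in Kir replicates 1 to 4 and 1.53, 0.72, 1.02 and 1.27 TPM in WT replicates 1 to 4. In both genes the 2 high Kir libraries exceeded every WT library and the 2 low ones did not. Ifi27l2a likewise had 55.5, 620.1, 528 and 68.02 TPM in the Kir replicates and 85.4, 85.95, 46.8 and 39.1 TPM in the WT replicates.

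Within prefix cry6 at P7, with 2 libraries of each genotype, the Kir over WT ratio of mean TPM was 21.02 for Rsad2, 14.3 for Ifi44, 11.1 for Xaf1, 9.60 for Bst2, 8.65 for Ifi27l2a, 5.55 for Ifitm3, 2.85 for Ifi27 and 2.84 for Ifi35. Within cry4, with 1 library of each genotype, it was 0.765 for Rsad2, 2.32 for Ifi44, 0.535 for Xaf1, 1.32 for Bst2 and 0.649 for Ifi27l2a. Within cry3, also with 1 library each, it was 0.701 for Rsad2, 1.08 for Ifi44, 1.82 for Xaf1, 1.12 for Bst2 and 1.74 for Ifi27l2a. For these 5 genes the ratio was 8.65 or more in cry6 and between 0.535 and 2.32 in cry4 and cry3, and Kcnj2 level and prefix cannot be told apart at P7. Summed macrophage markers at P7 were 138, 139.6, 136 and 233 TPM in Kir replicates 1 to 4 and 163, 144, 103 and 152 TPM in WT replicates 1 to 4, without the split of the Kir libraries.

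At P3 and P21, where all libraries are cry4, Kcnj2 also differed between Kir libraries. At P3, replicate 3, the library at 132 CPM of Kcnj2, was the lowest of the 3 Kir libraries for 8 of the 10 genes, all but Ifitm1 and Ifitm2, beside 33.1% of all genes. At P21, replicates 1 and 2, at 209 and 238 CPM, lay below replicate 3, at 1050 CPM, for 7 of the 10 genes, and not for Ifi27l2a, Ifitm1 or Ifitm2, beside 37.5% of all genes. These P21 libraries lay above all WT libraries for 10 and 9 of the 10 genes, beside 25.2% and 22.9% of all genes. At P0, where Kir libraries had 439 to 639 CPM of Kcnj2, none of the 10 genes was separate from WT. At P5, replicate 1 was the lowest Kir library for 9 of the 10 genes (25.7% of all genes) with 812 CPM of Kcnj2, close to the other two at 778 and 959 CPM. Without the 5 Kir libraries under 300 CPM, 8 of the 10 genes rose between P0 and P21 in Kir (14% of the 21813 genes tested then) and 8 passed edgeR's adjusted p for a larger difference at P21 (0.486%), with a single Kir library left at P21 that was assumed to vary like the other groups.

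**Figure D5:**
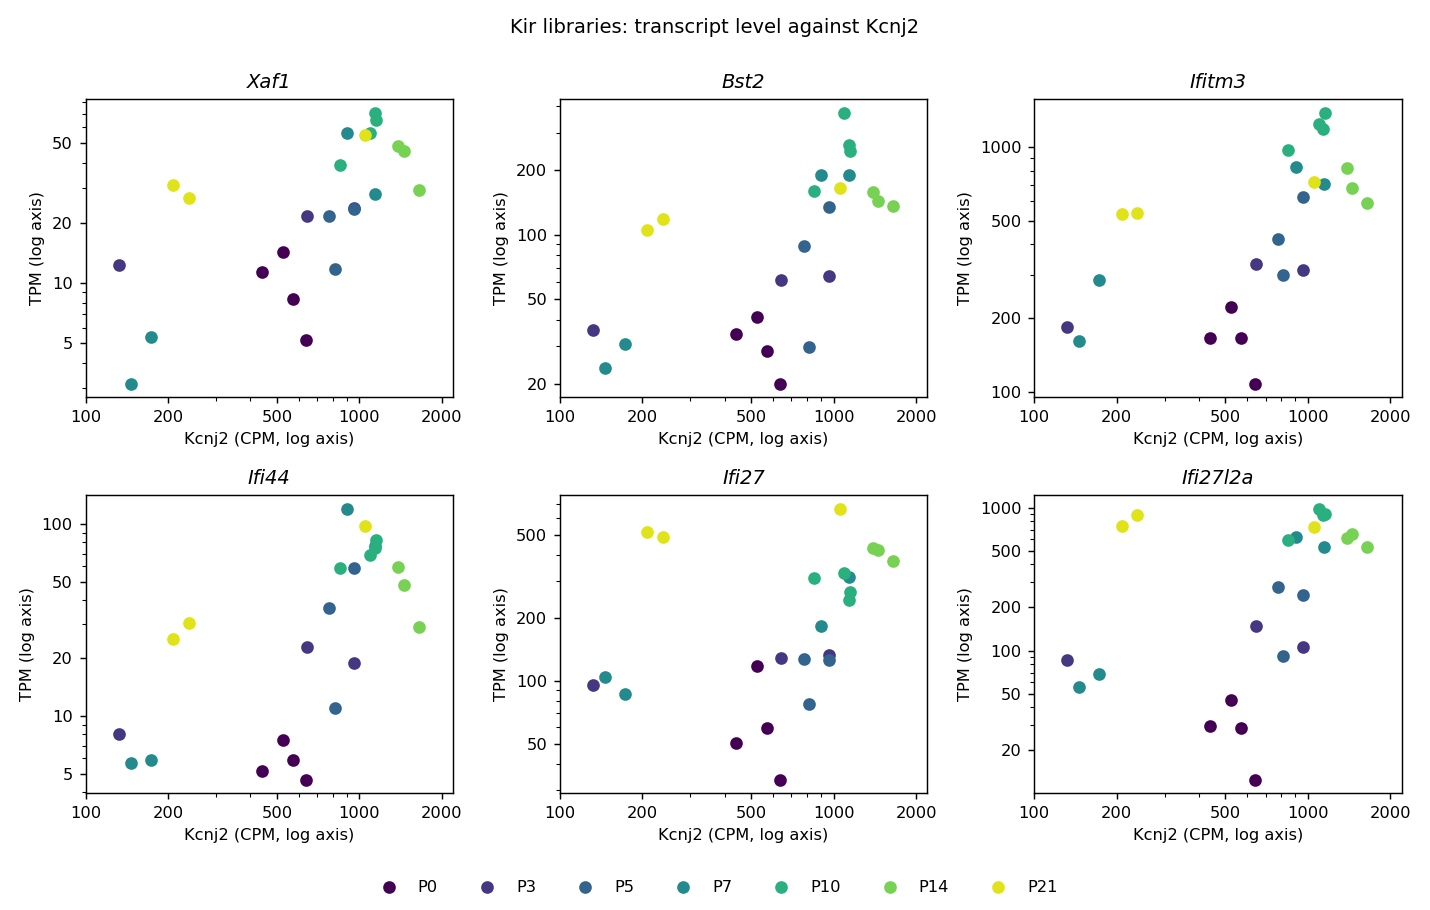
TPM of 6 of the genes (vertical log axis) against Kcnj2 CPM (horizontal log axis) in the 24 Kir libraries, coloured by age. The P7 libraries form a pair near 146 and 173 CPM with low levels and a pair near 903 and 1140 CPM with high levels. The P21 libraries at 209 and 238 CPM lie above that low pair. They lie below the P21 library at 1050 CPM for all of these genes but Ifi27l2a. The P3 library at 132 CPM is the lowest of its age.

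The rest of the interferon pathway was read from gene lists assembled with earlier results of these data known. Among 21 interferon genes, none reached the count needed for a test, and the highest count in any library was 6, for Ifne. Over all ligands there were 52 counts in the 24 Kir libraries and 33 counts in the 23 WT libraries. None of the 6 receptor genes (Ifnar1, Ifnar2, Ifngr1, Ifngr2, Ifnlr1, Il10rb) passed in the average over ages, with a median log2 difference of -0.002 beside 0.005 for all tested genes. Among the signalling genes, Irf9 at 1.33 ± 0.10 and Stat2 at 1.03 ± 0.10 rose (log2, SE, edgeR), and the kinase genes Jak1, Jak2 and Tyk2 did not pass. Of 4 inhibitors of the pathway, Usp18 rose by 2.46 ± 0.22 and Socs1 by 0.89 ± 0.13, whereas Socs3 and Pias1 did not pass.

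Of 28 other interferon-stimulated genes, 27 rose in the average over ages, beside 3.03% of all genes, and Ifit2 did not pass, with a median log2 difference of 2.49 beside 0.005 for all tested genes. Those with the smallest adjusted p were Oas1g at 2.76 ± 0.21 and Oas1a at 2.37 ± 0.19, near-identical copies of an enzyme that senses double-stranded RNA and between which reads may be split, Trim30a at 2.72 ± 0.20, Rtp4 at 2.50 ± 0.18 and the transcription factor gene Irf7 at 3.38 ± 0.27 (log2, SE, edgeR). At P0 none of the 28 passed (0.984% of all genes), and at P21 26 did, all higher (0.652% of all genes). Their change between P0 and P21 in the Kir minus WT difference passed for 13, beside 0.241% of all genes larger at P21, with a median of 3.31, beside 3.10 for the 10 effectors and -0.007 for all tested genes. Of the relatives and partners of the effectors, 6 of 8 were tested and Nmi (0.78 ± 0.07) and Cmpk2 (0.25 ± 0.05) rose. Ifitm5 at 0.60 ± 0.20, Ifitm6 at 0.62 ± 0.25 and Ifitm10 at 0.11 ± 0.14 did not pass. Of 7 tested genes known mainly as targets of interferon gamma, 5 rose, with a median of 0.49 and values such as 0.68 ± 0.12 for Cd74, the invariant chain of antigen presentation, and 0.49 ± 0.07 for the transcription factor gene Irf1.

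Markers of other cell types were measured beside the effectors. Of 9 macrophage markers, 7 rose in Kir in the average over ages (median log2 difference 0.41), beside 3.03% of all genes. The summed level of the 9 was 112 to 609 TPM in Kir libraries and 97.8 to 501 TPM in WT libraries. Taken by age, every Kir library lay above every WT library in that sum at P3, with 194 to 249 TPM in Kir and 104 to 179 TPM in WT, and at P14, with 160 to 200.2 TPM in Kir and 100.2 to 150.3 TPM in WT. The genotypes overlapped at the other 5 ages, narrowly at P5, P10 and P21 and more widely at P0 and P7. The lowest Kir sum was 111.9 TPM at P5, 150.7 TPM at P10 and 185.5 TPM at P21. The highest WT sum was 112.6 TPM at P5, 151.5 TPM at P10 and 191.5 TPM at P21. Among the markers that rose were the complement genes C1qb at 0.60 ± 0.08, C1qc at 0.54 ± 0.08 and C1qa at 0.50 ± 0.07, and Aif1 at 0.53 ± 0.11. At P0 none of the 9 passed and at P21 1 did. All 7 markers of mature olfactory neurons fell in Kir (median -0.43), beside 7.38% of all genes. Their summed level was lower in every Kir than in every WT library at P3, P5, P14 and P21, and overlapped at P0, P7 and P10. At P21 it was 5089 to 5508 TPM in Kir and 6207 to 6461 TPM in WT. None of 5 sustentacular, 7 basal, 6 endothelial or 6 fibroblast markers passed. Of the T cell markers, 2 of 7 were tested and both, Cd4 and Lck, rose, with the list summing to 2.94 to 6.73 TPM in Kir libraries and 1.21 to 6.66 TPM in WT libraries. Siglech, the defining marker of plasmacytoid dendritic cells, which are known for making interferon, was at 0 to 1.04 TPM in Kir libraries and 0 to 0.60 TPM in WT libraries. Of the 5 markers listed for these cells, 3 were tested, with a median of -0.17: Pacsin1, also known from neurons, fell (-0.31 ± 0.08), and Ccr9 (0.16 ± 0.15) and Klk1 (-0.17 ± 0.71) did not pass (log2, SE, edgeR). None of the 4 B cell, 3 neutrophil or 1 natural killer cell markers tested passed. The part of these cell types in the levels of the effectors was not tested.

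Likeness of pattern was measured as Pearson's r over the 14 group means of log2 CPM, given as a description, since groups of 1 title prefix share their depth and cannot be taken as independent. The mean of the 10 genes was most like Tap1 (r = 0.989), a peptide transporter of antigen presentation, then Dhx58 (0.985), Lgals3bp (0.984), Irf7 (0.980) and Zbp1 (0.980). Bst2 was most like Irf7 (0.995), Ifitm3 most like Oas1a (0.991), Rsad2 most like Iigp1 (0.990) and Xaf1 most like Rtp4 (0.990). Ifi35 was most like Psmb8 (0.989), Ifi44 most like Oasl2 (0.986), Ifi27l2a most like Plscr2 (0.973) and Ifi27 most like H2-K1 (0.965). Ifitm1 and Ifitm2 were most like Rap1b (0.940) and Limd2 (0.979). The r of each gene with the mean of the 10 was 0.390 for Ifitm2 and 0.597 for Ifitm1, and between 0.849 and 0.985 for the other 8.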

How the data were processed

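PolyA RNA-seq libraries of olfactory epithelium, 24 Kir and 23 WT, were analysed from 2 tables deposited by the authors. One table holds read counts per gene, which the authors deposited without normalization, and the other holds TPM per gene, a unit scaled for transcript length and depth that the authors deposited with gene symbols. The tools named in the submitters' processing notes are RSEM, STAR 2.6.1c and bcl2fastq 2.18, and the build named there is mm10. Whether counting used strand was not stated. Reads shared by near-identical genes can be split by an estimator of TPM and lost from counts, which bears on the Ifitm genes. Reads where Ifitm2 overlaps Gm45717 on the same strand can be lost from counts too.

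The members, gene lists and tests were chosen with earlier results of these data known. Symbols were taken from the TPM table and joined to counts by gene ID. The 4 lines of the count table that name no gene were left out of library sizes; per library they took 1.31% to 33.5% (unmapped), 5.17% to 20.6% (multimapping), 3.79% to 12.3% (no feature) and 2.91% to 3.80% (ambiguous) of reads. Gene counts per library were 8107547 to 30385151.

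Counts of 19927 genes that passed edgeR's filter, all 10 members among them, were fitted in R 4.3.3 with edgeR 4.0.16 (TMM, robust quasi-likelihood test, two-sided, Benjamini-Hochberg over all genes, threshold 0.05). The fit used all 47 libraries with terms for the 14 age-by-genotype groups and the title prefix. Per-library levels are TPM. Alternatives used limma 3.58.1 on log2(TPM + 1) and log2(TPM + 0.1) and DESeq2 1.42.0 on counts. The code was also run on simulated data.

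Named genes were all 10 members, ligands, receptors, signalling genes, inhibitors and relatives, genes of smallest adjusted p in the other lists, Kcnj2, and those whose group means of log2 CPM (prior count 2, mean of at least 5 CPM) were most like the members'. Replicates of a group differed by more than sampling noise in all 57 pairs. Whether equal replicate numbers mark paired libraries could not be settled. Only same-numbered Kir and WT libraries of P0, P3, P14 and P21 were compared, without differently numbered ones beside them. The correlation of their deviations ranged from -0.19 to 0.30 at P0 and from 0.17 to 0.29 at P3. It ranged from -0.09 to 0.10 at P14 and from -0.11 to 0.03 at P21. A gene of the signalling list is not reported here.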

Additional observations from a re-analysis of the deposited data

Results flagged for a closer look

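For 6 of the 10 genes the Kir minus WT log2 difference was larger at P21 than at P0 by edgeR's adjusted p over all 19927 genes, beside 0.251% of all genes. These are the values by which the genes were chosen, so the count supports nothing. It was 2 when Kir P21 replicate 3 or any 1 WT P21 library was left out, beside 18 to 33 of all genes. The change was 4.82 for Ifi44, 4.06 for Xaf1, 3.62 for Ifi27l2a, 3.15 for Ifi27, 3.05 for Bst2 and 2.38 for Ifitm3. For each of these, all 3 Kir libraries lay above all 3 WT libraries at P21 in TPM, as for 7.44% of all genes. At P0 the genotypes overlapped, and 0.928% of all genes had every Kir library above every WT library. This order follows in large part from the change for which the genes are listed here.

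Of 50 groups of 4 libraries by gene checked for a library far from the other 3, 2 stood out, both of Ifitm2. The 50 checks reuse the same libraries for each gene and are not independent. Whether 2 is more than chance gives was not tested. Ifitm2 was lowest in Kir P7 replicate 1, at 258 TPM, with the other 3 libraries at 315 to 324 TPM. That library was of prefix cry4 and had 146 CPM of Kcnj2. The cry4 WT library of P7 had 262 TPM, the lowest of its group. The part of prefix or Kcnj2 in this was not tested. Ifitm2 was highest in Kir P10 replicate 2, at 489 TPM, with the other 3 libraries at 368 to 375 TPM. Kir P10 replicate 2 also had the largest share of unmapped reads, 33.5%. The part of unmapped reads in the Ifitm2 level was not tested.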

How the results depend on the processing

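Without any single library, the count of the 10 genes called stayed at 9 to 9 for Kir minus WT averaged over ages, and ranged from 2 to 4 for WT P21 minus P0, from 7 to 9 for Kir P21 minus P0, from 2 to 7 for the change of the difference between P0 and P21, and from 2 to 6 for its change over 7 ages. In the same order, the counts over all genes ran from 1774 to 2335, 8826 to 9920, 8287 to 9790, 18 to 60 and 26 to 253. Without the prefix term, the counts were 2 (main 6) for the change between P0 and P21 and 1 (main 4) over 7 ages. Of all genes, 14 (main 50) and 10 (main 51) were called then. Over 7 ages, 2 of the 10 genes were called without a filter on low counts, beside 36 of all genes. With DESeq2 8 were called, beside 248 of all genes. For WT P21 minus P0, 5 of the 10 were called in a fit of P0, P3, P14 and P21 only (main 3). Of all genes, 9260 of 19055 were called there (main 10078 of 19927). The causes were not tested.

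In the 4 ages with shared replicate numbers, a fit with the replicate block called 8 genes in the averaged difference, 3 in WT, 8 in Kir and 6 in the change from P0 to P21, against 8, 5, 8 and 7 in the same 4 ages without the block. Of the 19055 genes tested there, 865, 9431, 7759 and 52 were called with the block and 959, 9260, 8945 and 75 without it. P3 was the only age at which all same-numbered pairs correlated above 0.1. The block could not be fitted with 7 ages. Of 1270 single-gene values under alternatives, 1195 kept their side of the threshold, 49 lost the call, 26 gained it and no call reversed direction. Values that were not called could change sign. In WT, the log2 change between P0 and P21 ran from -0.35 to 0.15 for Ifi27 and from -0.23 to 0.04 for Ifi35. The change of the difference for Ifitm2 ran from -0.06 to 0.30. The alternatives without Kir P10 replicates 1 and 2 and the 4-age fit without block were chosen after seeing the data. Depth limits Xaf1 and Rsad2 most, whose lowest counts in a library were 9 and 20.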

Other observations

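Low counts of 2 interferon lambda genes appeared in Kir libraries. Ifnl2 had 11 counts in 7 of 24 Kir libraries and 0 counts in 23 WT libraries. Ifnl3, a near-identical copy between which reads cannot be assigned with certainty, had 13 counts in 8 of 24 Kir libraries and 0 counts in 23 WT libraries. The TPM table, which can split reads between the copies, lists Ifnl2 above 0 in 8 of 24 Kir libraries, up to 0.81 TPM, and in 1 of 23 WT libraries, at 0.26 TPM. It lists Ifnl3 above 0 in 6 of 24 Kir libraries, up to 0.84 TPM, and in 1 of 23 WT libraries, at 0.28 TPM. No fold is given for values this low. The libraries with counts were of P5 to P21, no library of P0 or P3 held any, and no library held more than 3 of either gene. Depth differed between these ages. The cry4 libraries, among them all of P0 and P3, held 8107547 to 15461615 gene counts. The cry6 libraries, among them all of P5 and P10, held 19246688 to 30385151. Age and depth are thus mixed in these low counts. All 4 Kir P10 libraries held 1 to 3 counts of Ifnl3, 1 of the ages at which the effectors were highest. The receptor gene Ifnlr1 ranged from 5.19 to 12.8 TPM in Kir libraries and from 6.04 to 16.0 TPM in WT libraries. These genes were chosen from the ligand list after their values were seen, and the difference was not tested.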
